A study of Mus musculus with 14 samples.

Results

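E2F factors are transcription factors that switch the genes of DNA replication and mitosis on and off, and pocket proteins are the regulators that bind most of them. The 10 genes described here were taken from the study's count table by their symbols. They are 7 E2F genes (E2f1, E2f2, E2f3, E2f4, E2f6, E2f7 and E2f8) and 3 pocket protein genes (Rb1, Rbl1 and Rbl2). Each symbol matched 1 of the 22116 named entries of the table, and all 10 were among the 15159 entries that passed the filter on low counts.

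The study sequenced poly(A) RNA of whole spleens from 14 wild-type female BALB/c mice, 6 to 8 weeks old, to compare models of psoriasis-like skin inflammation. In the imiquimod-dorsal group, 4 mice had 5% cream of imiquimod, an agonist of Toll-like receptor 7, put on the skin of the back each day for 5 days. In the imiquimod-ear group, 4 mice had the same cream on the ear for 5 days. In the IL-23-ear group, 3 mice had 1 µg of IL-23, a cytokine on which Th17 cells depend, injected into the skin of each ear every other day, as 4 injections over 7 days. In the control group, 3 mice had petrolatum vehicle on the back and ears, and the design text calls them untreated. Each mouse gave 1 library, the labels put all libraries in 1 batch, and the 3 treated groups are set against the same control mice. Agent, route and length of treatment differ together between IL-23 and imiquimod and cannot be told apart. No injection is named for the control mice, so against control the effect of IL-23 cannot be told apart from that of the injections.

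Each library held 28354674 to 40289411 counts over named genes. Levels are given as CPM, a count unit scaled to library depth and here also by the trimmed mean of M-values. These further factors ran from 0.835 in imiquimod-dorsal 3 to 1.102 in control 4, so the libraries do not have the same total. Markers of the spleen's main cells were present in every library. The 6 B cell genes summed to 2523 to 3727 CPM, 6 T cell genes to 74.4 to 686 CPM and 6 red pulp macrophage genes to 772 to 1349 CPM. On the first principal component of all genes, which held 56.7% of the variance, the imiquimod-dorsal libraries lay at 74.11 to 91.28 and the control libraries at -51.68 to -33.22. Library imiquimod-ear 5 lay at -30.98, next to the controls, while the other 3 libraries of its group lay at -4.94 to 4.42. Library imiquimod-dorsal 4 held 263 CPM of 6 pancreas genes, against 6.78 to 16.1 CPM in the other libraries.

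E2F1, E2F2 and E2F3 are known as activators that drive entry into DNA synthesis, while E2F4 mostly acts as a repressor together with the pocket proteins p107 and p130, the products of Rbl1 and Rbl2. In resting cells p130 and E2F4 join the MuvB proteins in the DREAM complex, which keeps cell cycle genes silent. Cyclin-dependent kinases release this hold by phosphorylating the pocket proteins. E2F6 represses without pocket proteins, through Polycomb partners, and E2F7 and E2F8 are atypical repressors that bind DNA without a DP partner and are themselves E2F targets. The mouse spleen can make red cells and granulocytes as well as house lymphocytes, and in mice E2f4, E2f2 and Rb1 are each known to be needed for normal red cell maturation.

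Promoter sequences are shown for E2f2, E2f3, E2f7, Rbl1 and E2f8, which moved together, and for Rbl2, which moved the other way. The promoters of E2f1 and E2f6, which also rose in imiquimod-dorsal spleens, were searched but are not shown. RefSeq's promoter table (build GRCm38.p6), with 250 bases before to 50 bases after each start, held 10 promoters for 8 of the 10 members, E2f4 and Rb1 being the others. Each sequence was found once, unchanged, on its chromosome in GRCm39, and the coordinates are from that match. An E2F motif was searched as TTTCCCGC, TTTCGCGC, TTTGCCGC or TTTGGCGC on both strands, and 2.26% of all 32851 promoters in the table held one. It was in 4 of the members' promoters, the first start of E2f2 and E2f3 and the starts of E2f7 and Rbl1, where it is in capitals, and no match overlapped a match to the other motifs searched. The sequences, 5′ to 3′ on the gene's strand, lie at chr4:135899335-135899634 (+) for E2f2, chr13:30169997-30170296 (-) for E2f3, chr10:110581050-110581349 (+) for E2f7, chr2:157046405-157046704 (-) for Rbl1, chr7:48531295-48531594 (-) for E2f8 and chr8:91796435-91796734 (+) for Rbl2.
E2f2: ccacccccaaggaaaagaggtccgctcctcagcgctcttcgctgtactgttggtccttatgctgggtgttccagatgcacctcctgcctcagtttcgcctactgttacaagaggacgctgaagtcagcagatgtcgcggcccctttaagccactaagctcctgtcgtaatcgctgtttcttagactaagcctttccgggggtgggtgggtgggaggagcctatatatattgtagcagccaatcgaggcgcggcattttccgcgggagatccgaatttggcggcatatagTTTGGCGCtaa
E2f3: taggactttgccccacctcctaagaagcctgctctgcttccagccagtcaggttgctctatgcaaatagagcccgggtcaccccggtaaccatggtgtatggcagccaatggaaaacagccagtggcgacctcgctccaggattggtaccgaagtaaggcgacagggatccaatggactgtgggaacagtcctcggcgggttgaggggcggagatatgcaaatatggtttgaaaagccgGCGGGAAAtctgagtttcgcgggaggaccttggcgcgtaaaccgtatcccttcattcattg
E2f7: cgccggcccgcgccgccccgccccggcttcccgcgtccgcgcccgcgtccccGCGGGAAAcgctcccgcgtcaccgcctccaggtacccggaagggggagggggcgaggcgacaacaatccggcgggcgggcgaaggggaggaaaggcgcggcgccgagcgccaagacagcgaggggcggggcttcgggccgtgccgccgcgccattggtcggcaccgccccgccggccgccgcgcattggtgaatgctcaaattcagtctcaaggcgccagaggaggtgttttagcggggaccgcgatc
Rbl1: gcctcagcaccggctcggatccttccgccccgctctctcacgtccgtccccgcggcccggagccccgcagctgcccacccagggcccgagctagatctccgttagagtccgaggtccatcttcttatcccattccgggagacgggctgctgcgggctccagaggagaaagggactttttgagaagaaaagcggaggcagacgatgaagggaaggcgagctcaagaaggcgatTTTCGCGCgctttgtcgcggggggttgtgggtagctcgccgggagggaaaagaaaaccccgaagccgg
E2f8: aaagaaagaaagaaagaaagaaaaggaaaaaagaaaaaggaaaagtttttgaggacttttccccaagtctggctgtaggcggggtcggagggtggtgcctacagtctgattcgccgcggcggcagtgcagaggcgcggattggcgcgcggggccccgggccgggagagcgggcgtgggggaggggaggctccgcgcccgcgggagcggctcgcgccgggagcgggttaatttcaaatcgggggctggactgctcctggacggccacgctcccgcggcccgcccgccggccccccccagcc
Rbl2: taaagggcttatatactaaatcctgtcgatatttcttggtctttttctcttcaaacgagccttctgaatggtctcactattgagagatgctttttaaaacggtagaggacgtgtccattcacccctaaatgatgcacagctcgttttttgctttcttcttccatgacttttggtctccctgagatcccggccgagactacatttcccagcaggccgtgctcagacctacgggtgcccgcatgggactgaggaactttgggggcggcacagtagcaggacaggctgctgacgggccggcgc

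In the E2f2 promoter the motif TTTGGCGC lay 39 to 46 bases after the start, and in the Rbl1 promoter TTTCGCGC lay at -18 to -11. In the E2f3 and E2f7 promoters TTTCCCGC lay on the other strand, at -11 to -4 and at -198 to -191. No such letters were in the E2f1, E2f6, E2f8 and Rbl2 windows or in the second starts of E2f2 and E2f3. The search took exact matches alone, so E2F sites with any other letters would not have been found. The E2f1 window (chr2:154411297-154411596) lies inside the annotated gene and does not reach the gene's 5′ end in GENCODE, at base 154411812. The cell cycle homology region (CHR, TTTGAA or TTCGAA), a motif bound by MuvB, was in 19.2% of all promoters and lay in the E2f8 window at -20 to -15 on the other strand and in the Rbl2 window at -201 to -196 on the other strand. It also lay in the E2f3 window shown, and in that of the second E2f2 start. The CCAAT box was in 37.4% of all promoters and the GC box GGGCGG in 35.7%, with 5 GC boxes each in the E2f1 and E2f7 windows. These matches are descriptions of the letters in the windows.

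Values of the members are given per mouse as CPM scaled by the trimmed mean of M-values (TMM), in the order of replicates 2, 3, 4 and 5 for imiquimod-dorsal, 1, 3, 4 and 5 for imiquimod-ear, 1, 2 and 3 for IL-23-ear and 2, 4 and 5 for control. They are relative to the other RNA of the same spleen. In whole tissue, fewer cells of a type and less RNA per cell cannot be told apart, and this holds for every difference below. Fold changes are on the log2 scale with their standard error, from edgeR's quasi-likelihood test, and a gene is said to rise or fall where its p, adjusted after Benjamini and Hochberg over 15159 genes, was under 0.05. The labels call the libraries biological replicates. Each p sets a difference between groups against the spread between mice, which was estimated from all 14 libraries together.

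**Figure D1:**
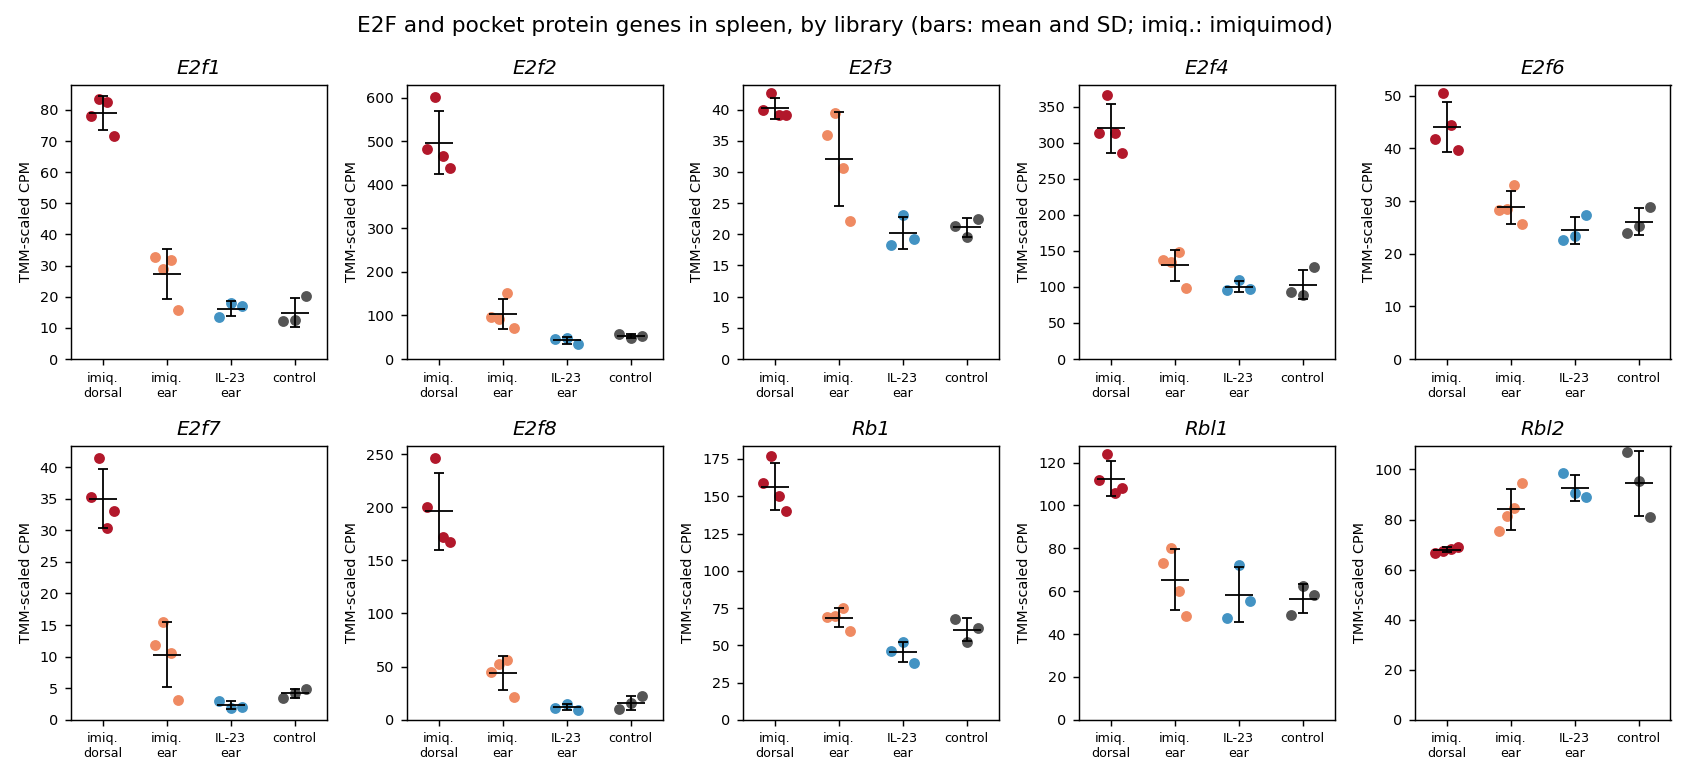
TMM-scaled CPM (vertical axes, starting at 0) of the 10 genes in the 14 spleens, 1 panel a gene, with a point for each mouse and the group's mean and SD as bars. The 4 imiquimod-dorsal points lie above the 3 control points for every gene but Rbl2, where they lie below, and imiquimod-ear 5, the last point of its group, is lowest of its group for 9 genes and highest for Rbl2.

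In the imiquimod-dorsal spleens 9 of the 10 genes rose and Rbl2 fell, and E2f8, E2f2 and E2f7 moved most. The members that passed in this comparison stand against 32.3% of all tested genes called higher and 27.6% called lower. For all 10 members the imiquimod-dorsal and control values did not overlap, as was so for 61.1% of all tested genes. The members' median log2 fold change was 1.5, while that of all tested genes was at 0.

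Among the activators, E2f2 changed most. E2f2 (chr4:135899585-135923368, + strand, GRCm39) had 482, 601, 466 and 439 CPM in imiquimod-dorsal, 97.5, 92.8, 152 and 70.8 CPM in imiquimod-ear, 45.6, 48.5 and 34.7 CPM in IL-23-ear and 57, 49.2 and 52.3 CPM in control spleens. Every imiquimod-dorsal mouse was above every imiquimod-ear mouse, and these were above every control. Against control, E2f2 was 9.41-fold higher in imiquimod-dorsal spleens (log2 fold change 3.23 ± 0.24, adjusted p = 8.32e-07), a larger log2 fold change than in all but 1.5% of tested genes. E2f1 (chr2:154401326-154411812, - strand), the founding activator, had 78.1, 83.5, 82.4 and 71.5 CPM in imiquimod-dorsal, 32.8, 29, 31.7 and 15.6 CPM in imiquimod-ear, 13.4, 18 and 17.1 CPM in IL-23-ear and 12.1, 12.5 and 20.2 CPM in control spleens. Imiquimod-ear 5 lay below control 5, while the other imiquimod-ear mice lay above all controls. In imiquimod-dorsal against control spleens E2f1 was 5.26-fold higher (2.40 ± 0.25, adjusted p = 6.66e-06). E2f3 (chr13:30090558-30170046, - strand), the third activator, had 40, 42.7, 39.1 and 39.1 CPM in imiquimod-dorsal, 36, 39.4, 30.6 and 22.2 CPM in imiquimod-ear, 18.3, 23.1 and 19.3 CPM in IL-23-ear and 21.3, 19.5 and 22.5 CPM in control spleens. Of the 7 E2F genes it was the one whose imiquimod-ear values overlapped those of imiquimod-dorsal. It was 1.90-fold higher in imiquimod-dorsal than in control spleens (0.93 ± 0.16, adjusted p = 0.000165).

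The repressors E2f4 and E2f6 rose as well, with smaller fold changes than E2f1 and E2f2. E2f4 (chr8:106024243-106032003, + strand) had 314, 366, 313 and 286 CPM in imiquimod-dorsal, 138, 135, 148 and 98 CPM in imiquimod-ear, 95.5, 109 and 96.6 CPM in IL-23-ear and 93.5, 89.5 and 127 CPM in control spleens. Only the imiquimod-dorsal mice stood clear of all other groups. E2f4 was 3.10-fold higher in imiquimod-dorsal than in control spleens (1.63 ± 0.15, adjusted p = 1.93e-06). E2f6 (chr12:16860874-16890766, + strand), the repressor that works with Polycomb proteins, had 41.7, 50.6, 44.4 and 39.6 CPM in imiquimod-dorsal, 28.2, 28.4, 33.1 and 25.6 CPM in imiquimod-ear, 22.6, 23.3 and 27.4 CPM in IL-23-ear and 23.9, 25.3 and 28.9 CPM in control spleens. Here too the groups other than imiquimod-dorsal overlapped one another. E2f6 had the smallest rise of the 9 (0.76 ± 0.11, adjusted p = 6.65e-05, 1.69-fold).

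The atypical repressors E2f7 and E2f8 were among the members that rose most. E2f8 (chr7:48516176-48531452, - strand) had 200, 246, 172 and 167 CPM in imiquimod-dorsal, 44.5, 52.7, 56.6 and 21.5 CPM in imiquimod-ear, 11, 14.7 and 9.43 CPM in IL-23-ear and 9.92, 15.4 and 22.8 CPM in control spleens. Imiquimod-ear 5 lay within the control range, and the other 3 mice of its group lay between the controls and the imiquimod-dorsal mice. E2f8 was 12.2-fold higher in imiquimod-dorsal than in control spleens (3.61 ± 0.37, adjusted p = 7.78e-06), and 1.0% of tested genes had a larger log2 fold change. Its exons share bases with a long noncoding RNA gene on the other strand, which has no entry in the count table. How far reads of that gene enter the E2f8 count was not tested. E2f7 (chr10:110581300-110623245, + strand) had 35.2, 41.4, 30.3 and 33.1 CPM in imiquimod-dorsal, 11.9, 15.4, 10.6 and 3.19 CPM in imiquimod-ear, 3.05, 1.91 and 2.06 CPM in IL-23-ear and 3.51, 4.16 and 4.89 CPM in control spleens. It was the lowest of the 10 in control spleens by CPM and rested on 67 to 189 counts a library in the IL-23-ear and control groups. E2f7 was 8.35-fold higher in imiquimod-dorsal than in control spleens (3.06 ± 0.41, adjusted p = 4.31e-05).

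The pocket protein genes split. Rb1 (chr14:73421113-73563507, - strand), the retinoblastoma gene, had 159, 177, 150 and 140 CPM in imiquimod-dorsal, 69.2, 69.6, 75.2 and 59.9 CPM in imiquimod-ear, 46.4, 51.9 and 38.3 CPM in IL-23-ear and 67.9, 52.2 and 61.5 CPM in control spleens. The imiquimod-dorsal mice were highest, and the IL-23-ear mice lay below all others. Rb1 was 2.59-fold higher in imiquimod-dorsal than in control spleens (1.37 ± 0.12, adjusted p = 1.56e-06). Its exons share 488 bases with Rcbtb2 and 408 bases with Lpar6 on the other strand, which fell in the same comparison (-0.42 ± 0.11 and -0.98 ± 0.19, adjusted p = 0.0034 and 0.000585). The library kit marks no strand, so reads from shared bases cannot be told apart. This limit also holds for E2f3, E2f4, E2f7, E2f8, Rbl1 and Rbl2. Their exons share bases with genes on the other strand that have no entry in the count table.

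Rbl1 (chr2:156987813-157046475, - strand), which codes for p107, had 112, 124, 106 and 108 CPM in imiquimod-dorsal, 73, 80.3, 60 and 48.4 CPM in imiquimod-ear, 47.7, 72.4 and 55.2 CPM in IL-23-ear and 48.9, 62.4 and 58.4 CPM in control spleens. The imiquimod-dorsal mice stood apart, and the other 3 groups overlapped. It was 1.98-fold higher in imiquimod-dorsal than in control spleens (0.99 ± 0.17, adjusted p = 0.000244). Rbl2 (chr8:91796664-91850492, + strand), which codes for p130, the pocket protein of resting cells, had 66.8, 67.6, 68.3 and 69.1 CPM in imiquimod-dorsal, 75.3, 81.5, 84.7 and 94.7 CPM in imiquimod-ear, 98.6, 90.7 and 88.8 CPM in IL-23-ear and 107, 95.3 and 81 CPM in control spleens. It was the one member whose imiquimod-dorsal mice were lowest, and they lay between 66.8 and 69.1 CPM. Rbl2 was 1.39-fold lower in imiquimod-dorsal than in control spleens (-0.47 ± 0.09, adjusted p = 0.00052). Of its merged exons 35.4%, or 4194 bases, are shared with Aktip on the other strand, which fell alike (-0.48 ± 0.09, adjusted p = 0.000261), and how far the reads of each gene enter the other's count was not tested.

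**Figure D2:**
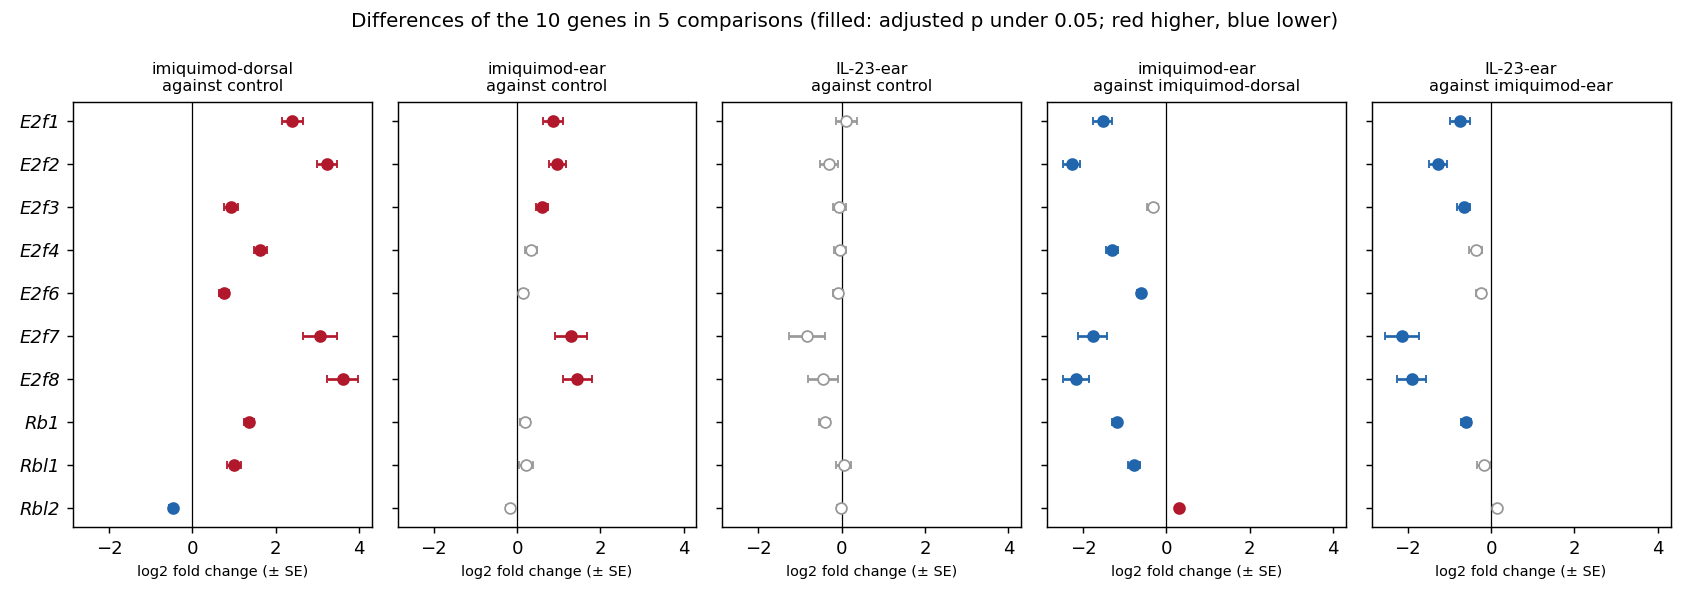
Log2 fold change (horizontal axis) with its standard error for each of the 10 genes in 5 comparisons, filled where the adjusted p was under 0.05, red higher and blue lower in the group named first. From left to right, 9 genes rose and 1 fell, 5 rose, 0 passed, 8 fell and 1 rose, and 6 fell.

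In imiquimod-ear spleens the 3 activators and the 2 atypical repressors rose against control. E2f8 had the largest log2 fold change (1.45 ± 0.34, adjusted p = 0.0126), followed by E2f7 (1.29 ± 0.39, adjusted p = 0.0336), E2f2 (0.97 ± 0.21, adjusted p = 0.00875), E2f1 (0.86 ± 0.24, adjusted p = 0.0242) and E2f3 (0.60 ± 0.15, adjusted p = 0.015). E2f4 (0.33 ± 0.15), E2f6 (0.15 ± 0.11), Rb1 (0.18 ± 0.12), Rbl1 (0.21 ± 0.17) and Rbl2 (-0.17 ± 0.09) did not pass, with adjusted p of 0.126 to 0.393. Of all tested genes 14.3% were called higher and 6.98% lower, and 24.6% had groups that did not overlap; of the members E2f2 alone did not overlap. The members' median log2 fold change was 0.46, against 0.02 for all genes.

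These 5 calls did not all hold when single mice were left out. Without control 4 none of the 5 passed (adjusted p of 0.0551 for E2f2 to 0.12 for E2f1), and without control 2 E2f2 alone did (E2f8 then had 0.0625). Without imiquimod-ear 1 or imiquimod-ear 3, E2f2 and E2f8 passed. Without imiquimod-ear 5, E2f4 passed too (0.40 ± 0.125, adjusted p = 0.0258) and Rbl2 fell (-0.27 ± 0.0875, adjusted p = 0.0327). Without control 5, E2f4 rose and Rbl2 fell in the same way (adjusted p = 0.0331 and 0.0343) while E2f7 did not pass (0.0542).

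In IL-23-ear spleens no member passed the test against control. Under edgeR 1 of the 10, Rb1, had an unadjusted p under 0.05 (log2 fold change -0.41 ± 0.13, adjusted p = 0.368), as had 8.61% of all tested genes, and DESeq2 and limma-voom called 0 members. Of all tested genes 0.0462% were called higher and 0.0066% lower. The values of E2f2, E2f7 and Rb1 lay below all controls in all 3 mice (log2 fold changes of -0.30 ± 0.22, -0.83 ± 0.43 and -0.41 ± 0.13), where 16.7% of all tested genes had groups that did not overlap. The members' median log2 fold change was -0.08, against 0.01 for all genes. For E2f1, E2f3, E2f4 (-0.04 ± 0.15), E2f6, Rbl1 and Rbl2 the estimate lay nearer to 0 than its error.

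Set directly against imiquimod-dorsal spleens, imiquimod-ear spleens had less RNA of 8 members and more of Rbl2. E2f2 was lower by the largest step (-2.27 ± 0.20, adjusted p = 4.25e-06), then E2f8 (-2.16 ± 0.31, adjusted p = 0.000157) and E2f7 (-1.77 ± 0.35, adjusted p = 0.00118). Rb1 was lower by 1.19 on the log2 scale, as a fold change of -1.19 ± 0.11 (adjusted p = 3.81e-06), and Rbl2 was higher (0.31 ± 0.08, adjusted p = 0.00905). E2f3 alone did not pass (-0.33 ± 0.14, adjusted p = 0.0685), and it did under limma-voom (-0.37, adjusted p = 0.0428) and without imiquimod-ear 3 (-0.42, adjusted p = 0.0188). Of all tested genes 23.3% were higher and 24.5% lower, 43% had groups that did not overlap, and the members' median was -1.25, against 0.02 for all genes.

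Set directly against imiquimod-ear spleens, IL-23-ear spleens had less RNA of 6 members. E2f7 (-2.13 ± 0.41, adjusted p = 0.00562), E2f8 (-1.90 ± 0.35, adjusted p = 0.00482), E2f2 (-1.27 ± 0.22, adjusted p = 0.00317) and Rb1 (-0.59 ± 0.12, adjusted p = 0.00641) fell, with groups that did not overlap. E2f3 (-0.66 ± 0.15, adjusted p = 0.0119) and E2f1 (-0.75 ± 0.24, adjusted p = 0.0474) fell with overlapping groups. E2f1 passed in 5 of 21 alternative analyses and E2f3 in 18, failing without IL-23-ear 1 (adjusted p = 0.0613) without IL-23-ear 3 (0.0611) and with only the 2 groups compared (0.0685); without imiquimod-ear 5, E2f4 fell as well (-0.46, adjusted p = 0.0152). Of all tested genes 7.05% were higher and 10.2% lower, 25.6% had groups that did not overlap, and the members' median was -0.63, against -0.02 for all genes.

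The order of the group means was imiquimod-dorsal, imiquimod-ear, control and IL-23-ear, from high to low, for E2f2, E2f3, E2f4, E2f6, E2f7, E2f8 and Rb1. For E2f1 and Rbl1 the IL-23-ear mean lay above that of control, and for Rbl2 the order ran from control through IL-23-ear and imiquimod-ear to imiquimod-dorsal. Between IL-23-ear and control, neighbours in each order, no difference passed the test (adjusted p of 0.368 for Rb1 to 0.967 for Rbl1 and Rbl2). Between imiquimod-ear and its lower neighbour the difference did not pass for E2f4, E2f6, Rb1 and Rbl1, nor between IL-23-ear and imiquimod-ear for Rbl2, and between imiquimod-dorsal and imiquimod-ear it did not pass for E2f3.

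Between mice of one group the members varied unequally. In imiquimod-ear spleens the coefficient of variation ran from 9.25% for Rb1 to 50.1% for E2f7, and it was above that of the other 3 groups for E2f7, E2f2 (33.3%) and E2f3 (23.4%). For E2f8 it was 35.9% in imiquimod-ear and 40.4% in control spleens. In imiquimod-dorsal spleens it ran from 1.44% for Rbl2 to 18.5% for E2f8.

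The make-up of the E2F RNA differed between groups as well as its amount. Per length, as CPM divided by the length of the merged exons in kilobases (RPKM), the 7 E2F genes summed to 228 ± 28.6 in imiquimod-dorsal, 68.3 ± 16.1 in imiquimod-ear, 38.7 ± 3.49 in IL-23-ear and 42.2 ± 6.33 RPKM in control spleens (SD, n = 4, 4, 3 and 3). E2f2 held 43.6% ± 0.785 of that sum in imiquimod-dorsal, 30% ± 4.3 in imiquimod-ear, 22.1% ± 2.8 in IL-23-ear and 25.4% ± 4 in control spleens. E2f4 held 24.4% ± 0.585, 33.3% ± 2.74, 44.9% ± 1.03 and 42.2% ± 1.92 in the same 4 groups. So E2f2 had the highest mean of the E2F genes per length in imiquimod-dorsal spleens (99.4 RPKM, against 55.4 RPKM of E2f4). In the other 3 groups E2f4 had the highest mean (17.9 RPKM, against 10.6 RPKM of E2f2, in control spleens). Both held with either gene length used. In imiquimod-ear spleens, with merged exons, E2f4 (22.4 ± 3.76 RPKM) and E2f2 (20.6 ± 6.86 RPKM) lay within their spread of each other. E2f8 held 15.4% ± 1.01 in imiquimod-dorsal and 6.71% ± 1.94 in control spleens, and E2f3 held 3.28% ± 0.263 and 9.3% ± 0.844. E2f1 held 10.1% in both.

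The 3 pocket protein genes summed to 34 ± 2.31 RPKM in imiquimod-dorsal, 21.7 ± 1.67 in imiquimod-ear, 19.6 ± 1.97 in IL-23-ear and 20.7 ± 0.717 RPKM in control spleens. Rbl2 held 16.9% ± 1.27 of that sum in imiquimod-dorsal, 33% ± 5.59 in imiquimod-ear, 40.3% ± 4.8 in IL-23-ear and 38.4% ± 3.95 in control spleens. Rb1 held 38.1% ± 1.42, 26.2% ± 1.92, 19.3% ± 1.61 and 24.3% ± 3.1 in the same groups. Rbl2 had the lowest mean of the 3 per length in imiquimod-dorsal spleens with either length. In control spleens, with merged exons, Rbl2 (7.95 ± 1.08 RPKM) and Rbl1 (7.71 ± 0.941 RPKM) lay within their spread of each other. The highest in imiquimod-dorsal spleens was Rbl1 (15.3 RPKM, against 13 RPKM of Rb1) with merged exons and Rb1 (31.3 RPKM, against 22.9 RPKM of Rbl1) with the longest transcript. These shares are descriptions, with no test.

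**Figure D3:**
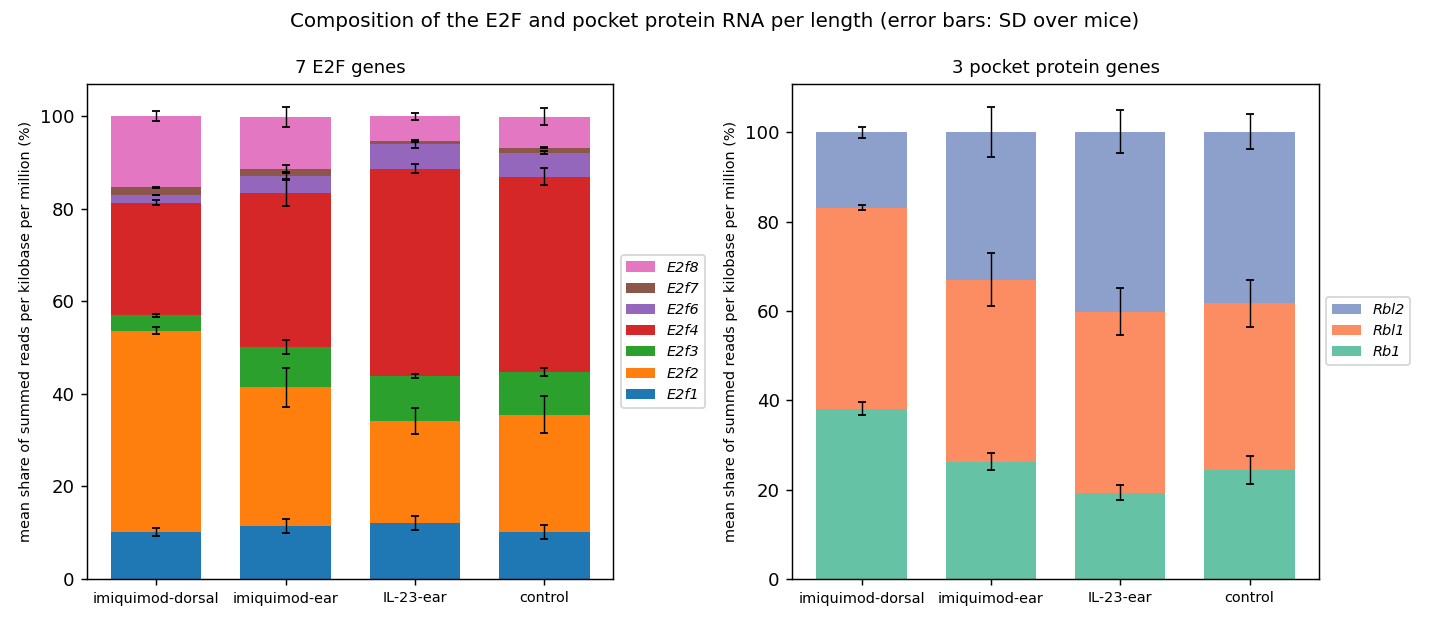
Mean share (%) of each gene in the summed RPKM of the 7 E2F genes (left) and of the 3 pocket protein genes (right) in the 4 groups, with the SD over mice. E2f2 takes 43.6% of the E2F sum in imiquimod-dorsal and 25.4% in control spleens, and Rbl2 takes 16.9% and 38.4% of the pocket protein sum.

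Genes that work with the members were read from lists. Their counts in imiquimod-dorsal against control spleens stand against 32.3% of all tested genes called higher and 27.6% called lower. In imiquimod-ear against control spleens these shares were 14.3% and 6.98%, and the median log2 fold change of all tested genes was 0.02. Both DP partners, which pair with E2F1 to E2F6 on DNA, rose in imiquimod-dorsal against control spleens, Tfdp2 by 2.70 ± 0.40 (adjusted p = 0.000115) and Tfdp1 by 1.74 ± 0.23 (adjusted p = 3.87e-05), with a list median of 2.22. In imiquimod-ear spleens Tfdp1 rose (1.09 ± 0.23, adjusted p = 0.00692) and Tfdp2 had 0.54 ± 0.37 (adjusted p = 0.325). Of 7 genes of the MuvB core and its activators, 6 rose in imiquimod-dorsal spleens (median 1.08), with Rbbp4, a histone-binding subunit, at 1.06 ± 0.09 (adjusted p = 9.86e-07) and Lin9, a MuvB scaffold, at 1.15 ± 0.14 (adjusted p = 1.61e-05). In imiquimod-ear spleens 4 of the 7 rose (median 0.38), among them Foxm1, the factor that takes over MuvB in late cell cycle, with the smallest adjusted p (1.30 ± 0.26, adjusted p = 0.00568). Without control 2, without control 4 or with only the 2 groups compared, 1 of the 7 rose.

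Of the 9 cyclins and kinases that phosphorylate pocket proteins, 7 rose and 2 fell in imiquimod-dorsal spleens (median 1.37). Cdk2, the kinase of S phase entry, rose by 1.37 ± 0.10 (adjusted p = 7.56e-07) and Ccnd3, a D-type cyclin, by 1.79 ± 0.15 (adjusted p = 9.3e-07). The 2 that fell, named after their values were seen, were the other D-type cyclins Ccnd2 (-0.99 ± 0.11, adjusted p = 7.8e-06) and Ccnd1 (-0.88 ± 0.14, adjusted p = 0.000107). In imiquimod-ear spleens 5 rose and Ccnd2 fell (-0.49 ± 0.11, adjusted p = 0.00981; list median 0.52), with Ccna2, the cyclin of S and G2 phase, at 1.69 ± 0.34 (adjusted p = 0.0064). The 5 became 2 without control 2, without control 4 or with only the 2 groups compared, and 3 without imiquimod-ear 3.

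Of 7 inhibitors of these kinases, 2 rose and 3 fell in imiquimod-dorsal spleens (median 0.07). Cdkn2c and Cdkn2d, which code for inhibitors of CDK4 and CDK6, rose by 2.88 ± 0.20 (adjusted p = 5.62e-07) and 1.77 ± 0.18 (adjusted p = 3.44e-06). Mean Cdkn2c was 120 CPM in imiquimod-dorsal, 35.3 CPM in imiquimod-ear, 14.7 CPM in IL-23-ear and 16.4 CPM in control spleens, and it was the 1 inhibitor that rose in imiquimod-ear spleens (1.11 ± 0.18, adjusted p = 0.00296). The 3 that fell, named after their values were seen, were Cdkn2b (-1.45 ± 0.20), Cdkn1c (-1.39 ± 0.35) and Cdkn2a (-0.62 ± 0.24), with adjusted p of 3.56e-05, 0.00365 and 0.0392. Of 5 genes of E2F protein turnover, 4 rose in imiquimod-dorsal spleens (median 1.05), with Ccnf, a ubiquitin ligase subunit that marks E2F proteins for decay, at 3.11 ± 0.32 (adjusted p = 6.73e-06) and Fzr1, an activator of the anaphase-promoting complex, at 2.24 ± 0.17 (adjusted p = 8.82e-07). In imiquimod-ear spleens 3 of the 5 rose, and 1 did so without control 2 or without control 4. Of 7 Polycomb partners of E2F6, 3 rose and Mga fell in imiquimod-dorsal spleens (median 0.07), Cbx3 by 1.01 ± 0.11 (adjusted p = 5.22e-06) and Mga by -0.43 ± 0.08 (adjusted p = 0.000307). Without control 2 the 3 became 1. The counts of inhibitors and Polycomb partners in imiquimod-dorsal spleens stand near the 32.3% of all tested genes called higher and 27.6% called lower.

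Known targets of E2F moved with the members. All 24 genes of DNA synthesis rose in imiquimod-dorsal spleens (log2 fold changes of 1.14 to 3.52, median 2.19), such as Slbp, which serves histone mRNA (2.22 ± 0.19, adjusted p = 1.42e-06), and Cdt1, a licensing factor of replication (1.66 ± 0.18, adjusted p = 6.75e-06). In imiquimod-ear spleens 23 of the 24 rose (median 1.00), among them Ezh2, a histone methyltransferase (1.22 ± 0.22, adjusted p = 0.00445), and Tyms, which makes thymidylate (1.53 ± 0.30, adjusted p = 0.00602). The 23 became 6 without control 2, 3 without control 4, 11 without imiquimod-ear 1, 10 without imiquimod-ear 3 and 4 with only the 2 groups compared. All 15 mitotic genes bound by the DREAM complex rose in imiquimod-dorsal (median 2.93) and in imiquimod-ear spleens (median 1.68), with Cenpf, a kinetochore protein, at 3.34 ± 0.32 in the first (adjusted p = 4.68e-06) and Cdc20, the activator of the anaphase-promoting complex, at 1.95 ± 0.31 in the second (adjusted p = 0.00296). The 15 of both comparisons passed with any 1 library left out.

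In IL-23-ear against control spleens 0 of the 76 tested genes of these 8 lists passed under edgeR, 4 had an unadjusted p under 0.05, and DESeq2 and limma-voom called 0. Of all tested genes 0.0462% were called higher and 0.0066% lower under edgeR in that comparison, and 8.61% had an unadjusted p under 0.05. So few calls were not particular to these lists. Against imiquimod-ear spleens, IL-23-ear spleens had lower values of 23 of the 24 DNA synthesis genes (median -1.10) and of all 15 mitotic genes (median -1.86), and a higher value of Ccnd2 (0.88 ± 0.11, adjusted p = 0.000924). The 23 became 6 without IL-23-ear 1, 7 without IL-23-ear 3, 10 without imiquimod-ear 3 and 11 without imiquimod-ear 1. Imiquimod-ear against imiquimod-dorsal spleens had lower values of 23 DNA synthesis (median -1.28) and 15 mitotic genes (median -1.39). Of all tested genes, 10.2% were called lower in IL-23-ear against imiquimod-ear spleens and 24.5% in imiquimod-ear against imiquimod-dorsal spleens.

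Marker genes of some cell types rose where the members rose, and those of others did not. The counts in imiquimod-dorsal against control spleens stand against 32.3% of all tested genes called higher and 27.6% lower. In imiquimod-ear against control spleens these shares were 14.3% and 6.98%. All 10 erythroblast markers rose in imiquimod-dorsal against control spleens (median log2 fold change 3.98), and their summed level was 8406 to 13711 CPM in imiquimod-dorsal, 446 to 2812 CPM in imiquimod-ear, 162 to 613 CPM in IL-23-ear and 691 to 871 CPM in control spleens. In imiquimod-ear spleens 0 of the 10 passed (median 0.90). The 6 neutrophil progenitor markers rose in imiquimod-dorsal and in imiquimod-ear spleens, with sums of 293 to 426 CPM in imiquimod-dorsal, 74.7 to 267 CPM in imiquimod-ear, 12.4 to 56.6 CPM in IL-23-ear and 12.9 to 32.1 CPM in control spleens. The 6 mature neutrophil markers also rose in imiquimod-dorsal spleens (median 3.84), with sums of 865 to 1619 CPM in imiquimod-dorsal, 103 to 472 CPM in imiquimod-ear, 74.2 to 324 CPM in IL-23-ear and 65 to 103 CPM in control spleens. In imiquimod-ear spleens 3 of them rose, and 0 did without control 2, without control 4 or without imiquimod-ear 1, and 1 without control 5. All 6 T cell markers fell in imiquimod-dorsal spleens (sums of 74.4 to 104 CPM, against 382 to 581 CPM in control spleens). Of the 6 B cell markers 2 fell in imiquimod-dorsal spleens, and 5 did with DESeq2. Of 6 red pulp macrophage markers 1 rose and 1 fell there, and of 6 megakaryocyte markers 1 rose. Without control 4 these rises did not pass. The 6 plasma cell markers rose in imiquimod-ear spleens, with sums of 2965 to 4425 CPM against 1104 to 1383 CPM in control spleens, and lay at 911 to 1460 CPM in imiquimod-dorsal spleens. The 5 germinal center markers summed to 43.9 to 161 CPM in imiquimod-ear and 22.3 to 30.8 CPM in control spleens, and 3 of the 5 rose. In imiquimod-dorsal spleens 2 of these 5 rose and 2 fell, with sums of 26.4 to 36.8 CPM. No gene of these lists was at 0 throughout a group, and the part that each cell type has in the members' differences was not tested.

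Within the imiquimod-ear group the mouse with the most and the mouse with the least erythroblast marker RNA each had the highest value of some members. Imiquimod-ear 3 had the lowest erythroblast sum of its group, 446 CPM, below all controls, together with the highest E2f7 (15.4 CPM), E2f3 (39.4 CPM) and Rbl1 (80.3 CPM) of its group and the highest sums of mitotic genes (2572 CPM) and germinal center markers (161 CPM). Imiquimod-ear 4 had the highest erythroblast sum, 2812 CPM, and the highest E2f2 (152 CPM), E2f4 (148 CPM), E2f6 (33.1 CPM), E2f8 (56.6 CPM) and Rb1 (75.2 CPM) of its group, while E2f1 was highest in imiquimod-ear 1 (32.8 CPM). Imiquimod-ear 5 had the lowest mitotic sum, 925 CPM, near the 814 CPM of control 5, and a neutrophil progenitor sum of 191 CPM. In IL-23-ear spleens the erythroblast sum was lowest in IL-23-ear 3 (162 CPM), which also had the lowest E2f2 (34.7 CPM), E2f8 (9.43 CPM) and Rb1 (38.3 CPM) of all 14 libraries.

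**Figure D4:**
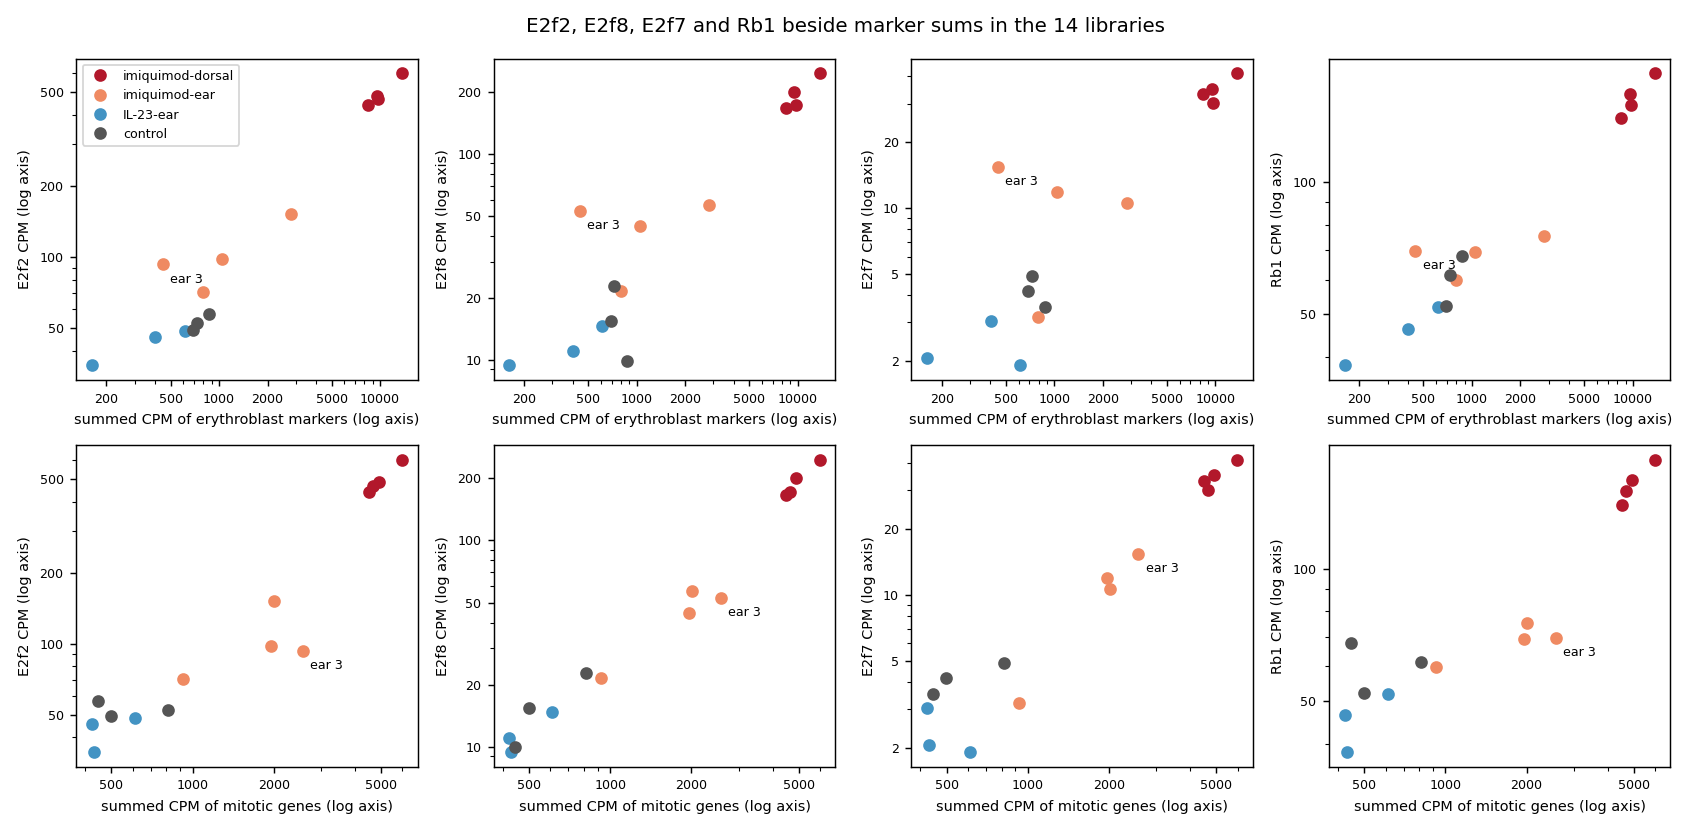
E2f2, E2f8, E2f7 and Rb1 (vertical log axes, CPM) beside the summed CPM of 10 erythroblast markers (top, horizontal log axes) and of 15 mitotic genes (bottom) in the 14 libraries. Imiquimod-ear 3, marked ear 3, has an erythroblast sum of 446 CPM, below the controls, and E2f7 of 15.4 CPM, above them.

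Over the 14 libraries the genes most like 4 of the members in pattern were named by Pearson's r of log2 CPM. For E2f2 they were Fzr1 (r = 0.996), Cd24a (0.996) and Crat (0.995), and for E2f4 Rprd1b (0.997), Haus8 (0.996) and Wapl (0.995). For E2f8 they were Cit (0.997), Prim2 (0.996) and Diaph3 (0.996). Rbl2 was most like Dusp2 (0.978), Acp3 (0.969) and Adamts6 (0.968), and its r with the other 9 members ran from -0.960 with E2f1 to -0.835 with Rb1. The 14 points share 4 treatment groups and 1 scaling, so these values describe the libraries and carry no p.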

How the data were processed

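Spleen RNA of 14 mice was sequenced from poly(A) RNA with a kit that marks no strand, per the labels' protocols. The deposited table holds raw read counts per gene and library, as its whole numbers show. The tools fastp 0.23.2, HISAT2 2.2.1, featureCounts 2.0.3 of Subread, StringTie 2.2.1 and DESeq2 1.38.3 and the build GRCm39 are named without roles, per the submitters' processing notes, and the annotation is not given in the sources used here. The table has 22740 entries, of which 624 assembled loci without a gene name (0.484% to 0.674% of counts) entered neither library sizes nor tests. For 529 entries the symbol came from GENCODE mouse release M39, in which 22101 IDs were found and which gave the coordinates and exon lengths.

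The test was that of edgeR 4.0.16 under R 4.3.3 (robust quasi-likelihood F test, TMM scaling, filterByExpr with a minimum count of 10), on all 14 libraries together, which left 10 residual degrees of freedom. The common biological variation came to 18.7%. P-values were adjusted after Benjamini and Hochberg over 15159 genes with a threshold of 0.05. The standard error is the log2 fold change over the square root of F. The test was also run on simulated counts in which all genes had the same dispersion and few genes were changed, in both directions alike. That setting differs from these data, so the run does not measure the test's errors on them. Totals were 35024011 to 40289411 counts in imiquimod-dorsal, 34551193 to 37402120 in imiquimod-ear, 33888595 to 35456180 in IL-23-ear and 28354674 to 35086665 in control libraries. No library was a copy of another: chi-square over its degrees of freedom was 24.1 to 141.5 in the 18 replicate pairs.

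The members and lists were chosen with earlier results of these data known. All 10 members are named. Of each list the 2 genes with the smallest adjusted p of a comparison may be named, and the 3 genes most like E2f2, E2f4, E2f8 and Rbl2 are those with the highest r among genes whose log2 CPM averaged 1 or more, passing over predicted genes, pseudogenes and antigen receptor segments. Alternatives were DESeq2 1.42.0, limma-voom (limma 3.58.1), RLE size factors, no filter on low counts, 262 haemoglobin and immunoglobulin genes taken out, only the 2 groups compared, the replicate number as a block, each library left out in turn and, for levels per length, the longest transcript.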

Additional observations from a re-analysis of the deposited data

Results flagged for a closer look

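For 9 of the 10 members the effect of imiquimod was not equal at the 2 sites of treatment, as tested by the direct comparison of imiquimod-ear with imiquimod-dorsal spleens (edgeR, adjusted p under 0.05). Of all tested genes 23.3% were called higher and 24.5% lower in that comparison, so a difference between the sites was not particular to the members. The log2 fold change of ear over dorsal was -2.27 for E2f2, -2.16 for E2f8, -1.77 for E2f7, -1.53 for E2f1, -1.30 for E2f4, -1.19 for Rb1, -0.78 for Rbl1 and -0.61 for E2f6, so these genes were lower in imiquimod-ear spleens. It was 0.31 for Rbl2, which was higher in imiquimod-ear spleens. The 9 kept their direction and passed in all 21 alternatives, with the highest adjusted p at 0.0322 for Rbl2. No member had a mouse standing apart from its group, by Dixon's critical value for the gap to the nearest mouse, in the 20 groups of 4 mice looked at.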

How the results depend on the processing

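In imiquimod-dorsal against control spleens the 10 members kept their direction and passed in all 21 alternatives, with log2 fold changes of 3.30 to 3.91 for E2f8, 3.13 to 3.29 for E2f2 and -0.62 to -0.43 for Rbl2. In imiquimod-ear against control spleens 5 members were called higher; 1 was with only the 2 groups compared, 0 with the replicate block, and 0 to 6 with 1 library left out, while 0 to 1 were then called lower. All genes called in that comparison numbered 3219, against 1126 with only the 2 groups compared, 311 with the replicate block and 1066 to 4976 with 1 library left out. For IL-23-ear against imiquimod-ear they numbered 2622, against 1247 with only the 2 groups compared, 1261 with the block and 1101 to 4462 with 1 library left out, and 4 to 7 members were then called lower. For IL-23-ear against control 8 genes were called, 132 by DESeq2, 14 by limma-voom, 0 with RLE size factors, without the filter, with haemoglobin and immunoglobulin genes taken out, with only the 2 groups compared or with the block, and 0 to 12 with 1 library left out, but 0 members in each. With the block, 0 of the 24 DNA synthesis and 2 of the 15 mitotic genes were called higher in imiquimod-ear against control. The cause of these changes was not tested. In IL-23-ear against control the estimates of E2f1 (-0.04 to 0.38), E2f4 (-0.15 to 0.12), Rbl1 (-0.15 to 0.16) and Rbl2 (-0.14 to 0.06), which did not pass, changed sign among the alternatives. No called fold change was reversed. Replicate numbers do not pair the mice by the labels: 13 pairs of libraries with 1 number had correlations of their deviations from -0.241 to 0.183, with 1 over 0.1, and 2 of 14 libraries matched their own number best. With the longest transcript in place of merged exons, shares within the family were 39.5% for E2f2, 23.4% for E2f4, 20.3% for E2f8 and 19% for Rbl2 in imiquimod-dorsal and 8.93% for E2f8 and 42.5% for Rbl2 in control spleens. The block took the higher share of calls in imiquimod-ear against control from 67.1% to 77.2%. Depth limits E2f7 most, with 67 to 189 counts in the libraries of the 2 lowest groups.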

Other observations

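E2f5, the E2F gene not among the 10 and like E2f4 a partner of p107 and p130, did not pass the test in imiquimod-dorsal spleens. It had 8.63, 10.9, 11.7 and 9.43 CPM in imiquimod-dorsal, 11, 11.4, 12.5 and 14.4 CPM in imiquimod-ear, 12.5, 12.4 and 14 CPM in IL-23-ear and 11.2, 12.1 and 11.8 CPM in control spleens. Imiquimod-dorsal and control values overlapped (log2 fold change -0.20 ± 0.13, adjusted p = 0.18).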
